A study of Mus musculus with 4 samples.

Results

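Mouse embryonic stem cells of the E14 line without the zinc finger protein ZFP57 were compared with wild-type E14 cells, gene by gene, by RNA sequencing. Genes entered the comparison when they had at least 1 RPM in either E14 library, and 12276 of the 26130 listed genes did. RPM is the number of reads per 1000000 reads of the library total. E14 carries the strain background 129P2/OlaHsd, and its 2 groups were wild type and Zfp57-/-, with 1 library each. A second line, JB1, of the background JF1/B6, was sequenced in the same 2 genotypes, again with 1 library each, and its values are set beside those of E14. All cells grew in serum and leukemia inhibitory factor on gelatin without feeder cells. The labels do not say whether each knockout line was 1 clone, which part of Zfp57 was deleted or how the mutant lines were made.

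With 1 library per genotype no test across samples exists, and no p-value is given. A level is written first for the wild type and then for the knockout. Fold is the ratio of the levels in RPM, with an exact conditional binomial (Clopper-Pearson) counting interval at 95%. It says nothing of how cultures vary, and since the reads carry no molecular identifiers it may be too narrow even for counting. The difference is log2((knockout RPM + 1)/(wild-type RPM + 1)), a scale that understates the change of genes near 1 RPM, and every count of genes at least 2-fold or 1.5-fold different refers to it, so that a gene of low level can have a larger ratio and not be counted. The gene table summed to 26801865 reads for the wild type and 37965626 for the knockout of E14, and 1 RPM stood for 50.5 and 70.7 reads. Just inside the threshold lay C130036L24Rik, at 0.891 and 1.004 RPM, and just outside it Arhgef6, at 0.991 and 0.736 RPM. A gene under 1 RPM in the wild type could enter only through a higher knockout level, and the reverse. Such genes are part of the shares over all genes too. Values are not divided by gene length, so levels of different genes are not compared. In bulk RNA, fewer cells of a type and less RNA per cell cannot be told apart.

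ZFP57 belongs to the KRAB zinc finger proteins, which bind DNA and recruit the corepressor KAP1 together with enzymes for histone H3 lysine 9 methylation and DNA methylation. It recognises the hexamer TGCCGC when its CpG is methylated and is best known for keeping the methylation of imprinting control regions in early embryos and embryonic stem cells. Zfp57 itself stood at 135 RPM in E14 wild type against 51.8 RPM in the knockout, 2.605-fold lower with a counting interval of 2.502 to 2.71. The JB1 values were 796 and 42.9 RPM, so both knockout libraries were on the side their labels give. Markers of the labelled cell type were present in both E14 libraries. Pou5f1, the POU factor that defines pluripotent cells, was 480.2 and 442 RPM, and Sox2, its partner, was 181 and 154 RPM.

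The E14 libraries were close for most genes. Over the 12276 genes the difference had a median of 0.02 and quartiles of −0.14 and 0.19, and 70.0% of the genes lay within 1.2-fold. By any amount, 6571 genes (53.5%) were higher in the knockout library and 5705 were lower. Counts of list members higher or lower by any amount are to be read beside these. A counting interval that excluded 1 was found for 58.4% of the genes. The 2-fold mark was passed upward by 117 genes (0.953%) and downward by 33 (0.269%). At 1.5-fold the counts were 468 higher (3.81%) and 279 lower (2.27%). Replication-dependent histone genes, which supply new chromatin in S phase and end in a stem-loop in place of a poly(A) tail, made up 51 of the 117, and all 62 measured members were higher. Since the libraries were made from poly(A) RNA, these reads do not give the level of all histone mRNA. Chromosome 6 (median −0.28) and a block of chromosome 14 from 41 to 77 Mb accounted for 17 of the 33 on the 2-fold list of lower genes and for 181 of the 279 on the 1.5-fold list. Outside the replication-dependent histone genes and both regions, 11436 genes remained, with 63 past 2-fold upward and 16 downward. The 63 include Hist1h2ba, Hist3h2a and Hist3h2ba, histone genes that were not counted as replication-dependent. No gene at 0.5 RPM or more in one library had 0 reads in the other, so no transcript of that level was seen in 1 genotype alone.

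**Figure D1:**
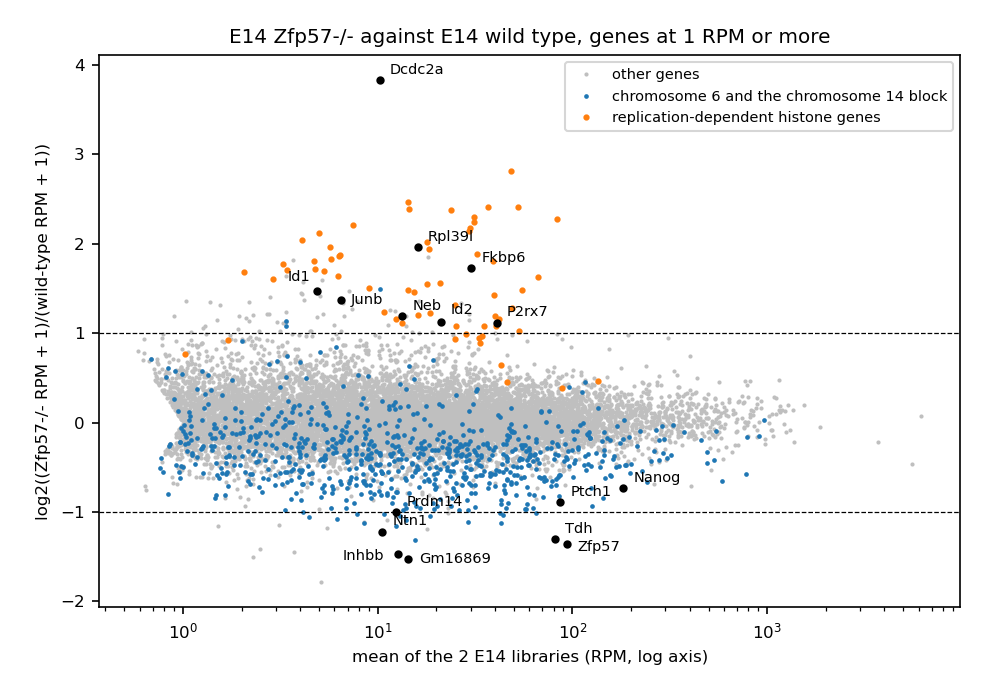
Each point is 1 of the 12276 genes. The horizontal axis is the mean level of the 2 E14 libraries in RPM on a log scale, the vertical axis is the log2 difference, knockout over wild type, and dashed lines mark 2-fold. Histone genes (orange) lie above 0, and genes of chromosome 6 and the chromosome 14 block (blue) lie mostly below it. Dcdc2a stands alone at 3.83.

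Outside Zfp57, imprinted genes, replication-dependent histones and the regions of chromosomes 6 and 14, Dcdc2a had the highest difference. Dcdc2a (chromosome 13, 25147873 to 25302575, mm9) encodes a doublecortin-domain protein that binds microtubules and sits in cilia. It was 0.475 and 19.99 RPM, 42.04-fold higher with a counting interval of 28.1 to 65.8, and its neighbour Mrs2, a magnesium channel gene of mitochondria on the other strand at 35.6 kb, was 5.11 and 8.77 RPM. In JB1 Dcdc2a was 2.72 and 3.73 RPM. Rpl39l (chromosome 16, 10170319 to 10175004), a paralogue of the ribosomal protein gene Rpl39 used in germ cells, was 5.96 and 26.1 RPM, 4.38-fold higher with a counting interval of 3.87 to 4.96. It was also higher in JB1, at 18.5 and 47.7 RPM, and reads of such near copies may be shared with other loci.

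Several of the next genes are known from germ cells, signalling or barrier tissues. Fkbp6, an immunophilin-like factor of the piRNA pathway, was 13.47 and 46.9 RPM, 3.48-fold higher with a counting interval of 3.21 to 3.79. Tnfrsf8, which encodes the receptor CD30, was 1.07 and 6.28 RPM, 5.87-fold higher with a counting interval of 4.42 to 7.94, while its neighbour Tnfrsf1b at 20.3 kb was 2.22 and 2.504 RPM. Lama3, the alpha chain of an epithelial laminin, was 2.06 and 8.25 RPM, 4.003-fold higher with a counting interval of 3.24 to 4.98, and Ttc39c, the next gene on the same strand, was 0.555 and 2.08 RPM. Id1, an inhibitor of basic helix-loop-helix factors and a target of BMP signals, was 2.12 and 7.65 RPM, 3.61-fold higher with a counting interval of 2.93 to 4.49. Cyp1a1, an oxidase switched on by the aryl hydrocarbon receptor, was 1.74 and 6.41 RPM, 3.68-fold higher with a counting interval of 2.92 to 4.67. Junb, a subunit of the factor AP-1, was 3.15 and 9.76 RPM, 3.099-fold higher with a counting interval of 2.604 to 3.71.

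The remaining genes among the 15 highest were 2 transcripts of unknown role, 2 histone genes and 3 Xlr genes. 4930544I03Rik was 7.29 and 29.1 RPM and 2410076I21Rik 1.902 and 6.51 RPM. The latter overlaps Nptn on the other strand, and the sources used here do not say whether reads were assigned by strand, so its level is uncertain. Hist3h2ba and Hist1h2ba, H2B genes that were counted with the histone variants and not with the replication-dependent genes, were 1.704 and 6.41 RPM and 8.74 and 24.01 RPM. Hist3h2ba shares a stretch of chromosome 11 with Hist3h2a (17.3 and 41.4 RPM) and Trim17 (14.8 and 38.8 RPM), and all 3 were at least 2-fold higher.

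**Figure D2:**
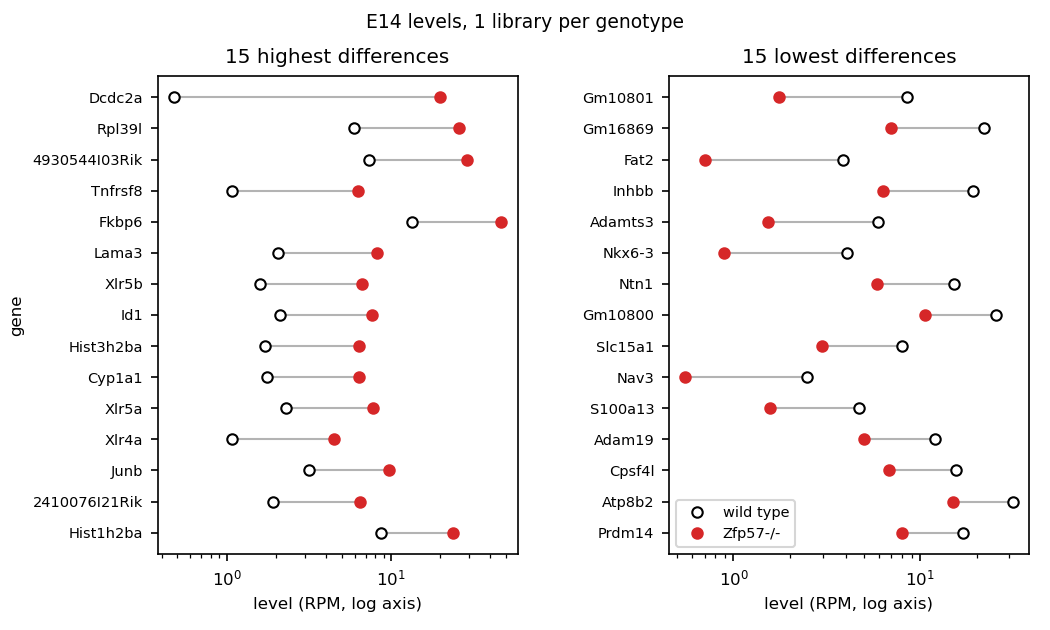
Levels in RPM on a log axis for the 15 genes with the highest and the 15 with the lowest difference outside Zfp57 itself, imprinted genes, replication-dependent histone genes and the regions of chromosomes 6 and 14. Open circles are the E14 wild-type library and red circles the E14 knockout library. The step of Dcdc2a, from 0.475 to 19.99 RPM, is wider than any other in the plot.

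Among the 15 genes with the lowest difference were cell-surface, secreted and patterning genes. Inhbb, the beta B subunit of activin B and inhibin B, was 19.3 and 6.31 RPM, 3.05-fold lower with a counting interval of 2.73 to 3.42. Gli2, the next measured gene on its strand at 362 kb and a transcription factor of the Hedgehog pathway, was also lower, at 28.3 and 16.1 RPM. Fat2, an atypical cadherin, was 3.84 and 0.707 RPM, 5.43-fold lower with a counting interval of 3.96 to 7.57. Adamts3, a protease that trims procollagen, was 5.903 and 1.53 RPM, 3.86-fold lower with a counting interval of 3.09 to 4.86. Ntn1, the guidance cue netrin 1, was 15.1 and 5.899 RPM, 2.56-fold lower with a counting interval of 2.27 to 2.89, together with the overlapping transcript RP23-25D18.6 (1.03 and 0.24 RPM). Nkx6-3, a homeobox gene of the stomach, was 4.06 and 0.891 RPM, 4.56-fold lower with a counting interval of 3.42 to 6.14.

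Prdm14, a repressor that keeps embryonic stem cells from primed and germ layer fates, was 16.9 and 7.94 RPM, 2.13-fold lower with a counting interval of 1.92 to 2.38, and it was lower in JB1 too (63.5 and 41.01 RPM). Adam19, a membrane metalloprotease, was 11.99 and 4.98 RPM, 2.41-fold lower with a counting interval of 2.11 to 2.75. Atp8b2, a phospholipid flippase, was 31.2 and 14.99 RPM, 2.08-fold lower with a counting interval of 1.92 to 2.25. Slc15a1, a peptide transporter, was 8.003 and 2.98 RPM, and Nav3, a microtubule-guiding protein of neurons, was 2.48 and 0.552 RPM. S100a13, a calcium-binding protein involved in protein release, was 4.68 and 1.57 RPM, and its neighbour S100a1 was 1.33 and 0.622 RPM, whereas S100a6 at 88.3 kb was higher, at 8.64 and 19.4 RPM. Cpsf4l, which resembles a factor of mRNA cleavage, was 15.6 and 6.76 RPM, with its neighbour Cdc42ep4 at 18.1 and 10.1 RPM. Gm10801 (8.499 and 1.75 RPM), Gm10800 (25.4 and 10.6 RPM) and Gm16869 (21.8 and 6.93 RPM) are predicted genes with near-identical copies, so their reads cannot be assigned with certainty. In JB1 these predicted genes were at 0.506 RPM or below in both libraries.

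Germline genes were higher as a group. The list holds genes known to be silenced in somatic cells by promoter methylation. Of 29 measured members, 26 were higher (53.5% of all genes were). Past 1.5-fold stood 13 of these (3.81% of all genes), and on the lower side Sycp3 alone. Asz1, counted among the 13, reached 1 RPM only in the knockout library. The median was 0.54, against 0.02 over all genes, and the same without the 6 members in the regions of chromosomes 6 and 14. Summed over the list, the level was 396 and 554 RPM.

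Promoter windows were available for 27 of these genes, from 250 bases before to 50 bases after the start in RefSeq (GRCm38.p6). The E-box CACGTG, its own reverse complement, stood in 13 of the 27 windows (48.1%), against 7.24% of 27025 promoter windows and 10.8% of the 9696 measured genes with a window. Factors of the MAX and MGA type, which keep germline genes silent in embryonic stem cells, are known to bind E-boxes. A match describes the letters and is not a binding site. Windows are printed for the member with the highest difference (Fkbp6), for 2 other higher members with an E-box near the start (Taf7l and Slc25a31) and for the lowest member (Sycp3), which also carries the motif. Capitals mark the E-box, and each sequence runs 5′ to 3′ along the gene's strand.
Fkbp6 (chr5:135349995-135350294, minus strand): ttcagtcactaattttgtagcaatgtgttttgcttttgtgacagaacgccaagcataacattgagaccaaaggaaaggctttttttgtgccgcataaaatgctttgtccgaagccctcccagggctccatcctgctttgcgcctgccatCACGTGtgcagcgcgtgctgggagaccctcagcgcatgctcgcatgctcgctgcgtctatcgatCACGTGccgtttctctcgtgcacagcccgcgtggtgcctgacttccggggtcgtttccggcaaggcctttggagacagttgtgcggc
Taf7l (chrX:134476441-134476740, minus strand): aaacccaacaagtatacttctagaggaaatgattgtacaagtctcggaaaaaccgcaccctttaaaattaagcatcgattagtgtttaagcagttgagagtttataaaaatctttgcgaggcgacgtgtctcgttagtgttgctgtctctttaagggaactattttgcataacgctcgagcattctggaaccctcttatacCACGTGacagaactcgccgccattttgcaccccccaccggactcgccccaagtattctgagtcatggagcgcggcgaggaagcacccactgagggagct
Slc25a31 (chr3:40708621-40708920, plus strand): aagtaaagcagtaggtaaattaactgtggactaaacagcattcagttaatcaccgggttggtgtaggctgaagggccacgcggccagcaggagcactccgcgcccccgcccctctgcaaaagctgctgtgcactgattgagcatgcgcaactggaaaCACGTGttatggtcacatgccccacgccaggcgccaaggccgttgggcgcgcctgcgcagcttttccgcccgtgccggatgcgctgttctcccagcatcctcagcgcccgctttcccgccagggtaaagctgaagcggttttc
Sycp3 (chr10:88459337-88459636, plus strand): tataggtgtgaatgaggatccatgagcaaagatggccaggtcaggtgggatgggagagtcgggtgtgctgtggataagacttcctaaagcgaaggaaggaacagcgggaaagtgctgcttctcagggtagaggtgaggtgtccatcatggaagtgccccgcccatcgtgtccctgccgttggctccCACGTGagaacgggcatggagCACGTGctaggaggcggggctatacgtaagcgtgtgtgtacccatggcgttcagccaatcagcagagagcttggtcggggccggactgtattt
E-boxes began 101 and 37 bases before the start of Fkbp6, 49 before that of Taf7l, 93 before that of Slc25a31 and 64 and 43 before that of Sycp3. Among the lower members with a window, Sycp3 held 2 copies and Tdrd5 (difference −0.25) held none. These are too few to say whether the motif goes with the direction, which was not tested. The ZFP57 hexamer TGCCGC or its reverse complement GCGGCA was in 7 of the 27 windows (25.9%), against 20.2% of the measured genes. Genes outside the replication-dependent histones and both regions were read in the same way. The hexamer was in 54 of 313 windows of those at least 1.5-fold higher (17.3%). It was in 19 of 67 of those at least 1.5-fold lower (28.4%). Windows were found for 79.1% of the measured symbols, so the shares describe those genes only.

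The germline members are taken here by role. In the piRNA pathway, which silences transposons, the differences spread widely. Fkbp6 was the highest, followed by Mael (7.59 and 14.7 RPM, 1.94-fold higher), Asz1 (0.277 and 1.09 RPM) and Mov10l1 (7.904 and 12.8 RPM), whereas Piwil2, an Argonaute of the same pathway in the chromosome 14 block, was lower at 21.7 and 16.1 RPM. The Tudor-domain genes of the pathway, Tdrd9, Tdrd1 and Tdrd5, had differences of 0.54, 0.23 and −0.25, and Piwil4 had 0.34. Of RNA-binding regulators, Dazl was at 10.6 and 22.1 RPM, 2.09-fold higher with a counting interval of 1.897 to 2.31, and D1Pas1, a germline RNA helicase, at 9.65 and 20.5 RPM, 2.12-fold higher with a counting interval of 1.91 to 2.36. Of the meiotic chromosome axis and synapsis genes, Sycp2 was 3.92 and 6.89 RPM and Hormad1 31.2 and 40.3 RPM, but Sycp3 was 49.6 and 30.7 RPM, 1.62-fold lower with a counting interval of 1.52 to 1.71. Taf7l, a germline subunit of the transcription factor TFIID, was 13.3 and 25.2 RPM, 1.901-fold higher with a counting interval of 1.74 to 2.08, and Slc25a31, a testis form of the ADP/ATP carrier, was 2.61 and 5.08 RPM. In JB1 the 29 genes had a median of −0.20, with Taf7l at 17.3 and 3.402 RPM and Fkbp6 at 61.9 and 53.7 RPM.

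X-linked families of the germline and placenta showed the highest median of any list outside the replication-dependent histones. Of 20 measured Rhox, Xlr and Mage genes, 18 were higher and the list median stood at 0.95. The 10 that passed 2-fold (0.953% of all genes did) were Xlr genes and Rhox13, a homeobox gene, at 6.399 and 16.7 RPM. Xlr5b was 1.58 and 6.68 RPM, 4.21-fold higher with a counting interval of 3.32 to 5.41, Xlr5a 2.28 and 7.78 RPM and Xlr4a 1.07 and 4.498 RPM. These Xlr genes lie next to each other on the X chromosome and are near-identical, so reads may be split among them, and some are also counted as imprinted. Mageb16 was 16.7 and 28.2 RPM. The placental homeobox genes Rhox6 (2.199 and 1.87 RPM) and Rhox9 (1.53 and 1.202 RPM) were not higher. In JB1 the family median was −0.23.

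Genes of the early embryo were listed apart. Of 9 measured genes of the 2-cell-like state, a rare condition of stem cells that resembles the 2-cell embryo, 8 were higher, with a median of 0.48. Zscan4d was 3.45 and 5.76 RPM and Zscan4e 2.02 and 3.59 RPM, both with near-identical copies, while Eif1a was lower at 198 and 157 RPM. Pramel and Pramef genes, chosen as a family after their values were seen, so that their direction supports nothing, were higher in 7 of 7 cases, with Pramel6 at 2.75 and 7.695 RPM, Pramel7 at 1.55 and 4.55 RPM and Pramef17 at 0.991 and 3.37 RPM. Boll (1.74 and 4.58 RPM), a relative of Dazl, Rbmxl2 (12.3 and 25.9 RPM), a testis splicing factor, Prss50 (0.911 and 2.94 RPM), a testis protease, and Pdha2 (0.911 and 3.296 RPM), the testis form of a pyruvate dehydrogenase subunit, were also at least 2-fold higher and were likewise picked after their values were seen. Usp26, an X-linked testis deubiquitinase, was 1.27 and 4.26 RPM.

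DNA methyltransferases and their partners went both ways. Dnmt3b, a de novo methyltransferase, was 47.7 and 67.2 RPM, 1.41-fold higher with a counting interval of 1.34 to 1.48, Dnmt3l, its cofactor, 211 and 286 RPM, and Hells, a remodeller needed for methylation, 381 and 485 RPM. Tet1, which oxidises methylcytosine, was 608 and 421 RPM, 1.45-fold lower with a counting interval of 1.42 to 1.47, and Tet2, on chromosome 3, was 300.4 and 239 RPM. Over 36 heterochromatin, KAP1 and DNA methylation genes the median was 0.01, with 19 higher. Mphosph8, a subunit of the silencing complex HUSH on chromosome 14, was the only member past 1.5-fold, at 57.3 and 32.7 RPM.

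Chromatin-modifying complexes differed little as groups. Of 33 histone methyltransferases and demethylases 22 were lower (median −0.10). The median was −0.05 without the 2 members in the regions of chromosomes 6 and 14. The 2 members at least 1.5-fold lower were Prmt5 (76.8 and 38.9 RPM), an arginine methyltransferase in the chromosome 14 block, and Mll5 (10.6 and 6.68 RPM). Rbbp5, a core subunit of the H3 lysine 4 methyltransferases, was 106 and 73.9 RPM, and Kdm5a, a demethylase of the same mark on chromosome 6, was 202 and 144 RPM. Polycomb complexes had a median of 0.04 over 30 genes, with Suz12 at 202 and 249 RPM and Ezh2, on chromosome 6, at 85.6 and 70.2 RPM. Remodellers of the SWI/SNF, NuRD and INO80 type had a median of 0.01, with Smarcc2, a SWI/SNF scaffold, at 11.8 and 19.22 RPM and Chd3 at 23.2 and 15.1 RPM. Histone genes listed as variants with poly(A) tails were higher in 10 of 13 cases (median 0.27). The 3 members past 1.5-fold were all at least 2-fold higher, among them Hist3h2ba and Hist1h2ba. None of the variants H3f3b, H2afz and H2afy passed 1.5-fold. H3f3b, a gene for the replacement histone H3.3, was 646 and 892 RPM, and H2afz, for H2A.Z, was 476 and 651 RPM, while H2afy, for macroH2A, was lower at 46.4 and 31.2 RPM. Slbp, which binds the stem-loop of histone mRNA, was 108 and 142 RPM, and the 18 measured genes of histone mRNA 3′ end processing had a median of 0.02.

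Zfp genes, most of which encode C2H2 zinc finger proteins with or without a KRAB domain, were lower as a family. Of 323 measured, 228 were lower by any amount, and the median was −0.13, close to the JB1 median of −0.16. At least 1.5-fold higher were 3 (3.81% of all genes were) and lower 6 (2.27% of all genes), so the calls were no more frequent than the background. Zfp81 was 15.99 and 9.14 RPM, 1.75-fold lower with a counting interval of 1.58 to 1.94, and Zfp598, a sensor of stalled ribosomes, was 33.1 and 20.1 RPM. Zfp629 was the highest, at 0.337 and 2.405 RPM, and Zfp296, a pluripotency-linked factor, was 14.96 and 23.7 RPM. The 14 measured Klf genes had a median of −0.12, with none past 1.5-fold.

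Signals of the TGF-beta superfamily, which pattern the embryo through SMAD factors, had no common direction. Of 12 measured ligands 7 were higher, with a median of 0.11. Inhbb was the lowest ligand, and Bmp4, in the chromosome 14 block, was 10.1 and 4.95 RPM, 2.05-fold lower with a counting interval of 1.78 to 2.35. Gdf15, a stress-induced ligand, was higher at 2.81 and 5.18 RPM, and Nodal was 59.01 and 65.5 RPM. The 10 receptors and coreceptors had a median of −0.03, with none past 1.5-fold. Among 9 inhibitors, Fst, which sequesters activin, was 6.28 and 11.6 RPM, 1.85-fold higher with a counting interval of 1.63 to 2.12, and Lefty1, a Nodal antagonist, was 3.39 and 5.503 RPM. Of 13 transducers and targets, Id1 and Id2 passed 2-fold. Id2 was 12.9 and 29.2 RPM, 2.27-fold higher with a counting interval of 2.08 to 2.48, and Id3 was 2.16 and 3.31 RPM, 1.53-fold higher with a counting interval of 1.22 to 1.94, whereas Smad7, an inhibitory SMAD that is itself a target, was 24.1 and 19.7 RPM. The whole list of 44 genes had a median of 0.03.

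Hedgehog genes were mostly lower. This pathway runs from the receptor PTCH1, which holds SMO in check, to the GLI factors, and Ptch1 and Gli1 are also its targets. Of 12 measured genes 9 were lower, and the median was −0.11 (−0.10 without the 1 member on chromosome 6). Over the 16 members in the gene table, measured or not, the summed level was 260.05 and 184 RPM. Ptch1 was 113 and 60.3 RPM, 1.87-fold lower with a counting interval of 1.79 to 1.94. Gli2 was 1.75-fold lower with a counting interval of 1.62 to 1.898, Gli1 was 35.1 and 26.6 RPM and Smo, on chromosome 6, 14.5 and 11.5 RPM. Against this direction, Kif7, a kinesin that regulates GLI in cilia, was 9.65 and 14.3 RPM. In JB1 Ptch1 and Gli1 were lower as well, at 153 and 50.5 RPM and 97.003 and 20.8 RPM, and Gli2 was 115 and 108 RPM. The 37 measured genes of the cilium, through which this pathway signals, had a median of 0.02. Ift88, an intraflagellar transport gene on chromosome 14, was 10.6 and 5.701 RPM.

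The remaining signalling lists had medians from −0.05 (Hippo) to 0.16 (retinoic acid), against 0.02 over all genes. For Wnt, 24 of 41 measured genes were higher (median 0.08). The only 2 past 1.5-fold were receptors in the regions of chromosomes 14 and 6, Fzd3 (7.904 and 3.58 RPM) and Lrp6 (86.9 and 56.7 RPM), and Sfrp1, a secreted inhibitor, was 47.9 and 34.3 RPM. FGF and ERK genes had a median of 0.07 over 38 members. The feedback inhibitors and targets of that pathway were higher in 10 of 13 cases, with Dusp5, an ERK phosphatase, at 5.15 and 7.41 RPM and Egr1 at 10.8 and 14.8 RPM, whereas Fgf4, the main FGF of these cells, was 171 and 136 RPM. Genes of LIF and STAT3, the pathway that sustains these cultures, had a median of 0.15. Of 19 measured, 3 were at least 1.5-fold higher, Junb among them, and 1 was at least 1.5-fold lower. Lifr, the receptor, was 142 and 185 RPM, Stat3 80.5 and 94.3 RPM, Socs3, the feedback inhibitor, 10.2 and 14.05 RPM, and Pim2, a kinase induced by STAT3, 8.62 and 14.6 RPM, while Tcfcp2l1, a STAT3 target, was lower at 504 and 308 RPM.

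Single members of other pathways stood out from lists that did not. Lfng, which adds sugars to Notch, was 1.39 and 3.25 RPM, 2.35-fold higher with a counting interval of 1.79 to 3.11, within a Notch list whose median was 0.05. In the Hippo list (median −0.05), the YAP targets Ctgf and Cyr61 were 27.8 and 54.01 RPM and 10.1 and 15.6 RPM, whereas the DNA-binding partners Tead1 and Tead4, the latter on chromosome 6, were 60.6 and 45.4 RPM and 10.9 and 7.38 RPM. In the insulin list (median 0.06), Igf1r, the IGF receptor, was 10.8 and 6.65 RPM, 1.63-fold lower with a counting interval of 1.44 to 1.85, and Ddit4, an inhibitor of mTOR, was 23.5 and 36.1 RPM, 1.53-fold higher with a counting interval of 1.43 to 1.64. Efnb2, an ephrin, was 3.45 and 6.24 RPM, and Unc5b, a receptor for netrin, was 7.51 and 13.04 RPM, opposite in direction to its ligand gene Ntn1. The guidance list as a whole had a median of −0.04 over 17 genes. P2rx7, an ATP-gated channel, was 25.4 and 56.3 RPM, 2.22-fold higher with a counting interval of 2.08 to 2.36.

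Immediate early genes, which answer growth factors and handling within minutes, showed a median of 0.31, and 20 of 22 were higher. At least 1.5-fold higher were 5, against 3.81% of all genes. Besides Junb, these were Ctgf, 1.94-fold higher with a counting interval of 1.83 to 2.07, Ier2 (15.7 and 27.5 RPM), Jun (4.99 and 8.29 RPM) and Egr2 (0.416 and 1.15 RPM). Egr2 reached 1 RPM only in the knockout library, so it could enter the list only as a higher member. Fos, the AP-1 partner of Jun, was nearly level, at 11.99 and 13.3 RPM, and Myc was lower, at 3.31 and 2.702 RPM. In JB1 the same list had a median of −0.39, with Fos at 46.1 and 4.72 RPM. Ptgs2, the inducible cyclooxygenase that answers the same stimuli, was 3.98 and 11.8 RPM, 2.95-fold higher with a counting interval of 2.53 to 3.46.

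Genes of the integrated stress response, which ATF4 switches on when amino acids run short or translation initiation is blocked, were higher in 22 of 26 cases (median 0.20). Atf5, a transcription factor whose translation this response controls, was 26.5 and 54.02 RPM, 2.04-fold higher with a counting interval of 1.92 to 2.17. Ddit3, which encodes CHOP, was 5.59 and 8.88 RPM, and Ddit4 was 23.5 and 36.1 RPM. Chac1, a glutathione-degrading enzyme, was 29.5 and 39.1 RPM, and Trib3, a pseudokinase, was 51.2 and 62.9 RPM. Atf4 mRNA itself was 214 and 211 RPM, and Asns, asparagine synthetase, was 489 and 427 RPM. The JB1 median was −0.66, on the other side of 0. Genes of the unfolded protein response had an E14 median of 0.03, with none past 1.5-fold, and Hspa5, the main chaperone of the endoplasmic reticulum, was 325 and 331 RPM.

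The other stress and immune lists were near the median of all genes. Heat shock genes had a median of 0.11 over 22 genes, and Hspa1a, the inducible HSP70, was the only one past 1.5-fold, at 0.574 and 1.92 RPM. Hsp90aa1, a main cytosolic chaperone, was 4000.0 and 3449 RPM. Of 23 p53 targets 12 were higher (median 0.08). Bbc3, which encodes the death activator PUMA, was 8.91 and 18.2 RPM, 2.04-fold higher with a counting interval of 1.83 to 2.28, and Cdkn1a, the cell cycle inhibitor p21, was 25.02 and 36.9 RPM. Tnfrsf10b, a death receptor in the chromosome 14 block, was 21.97 and 10.8 RPM, and Mdm2 was 271 and 294 RPM. In JB1 the p53 list had a median of −0.59. NRF2 and glutathione genes had a median of −0.03, with Gss, glutathione synthetase on chromosome 2, at 23.8 and 13.1 RPM, 1.81-fold lower with a counting interval of 1.66 to 1.98. Apoptosis genes (−0.03), autophagy and lysosome genes (0.00) and interferon genes (0.09) each had members past 1.5-fold only on the lower side, namely Casp2 (31.4 and 19.24 RPM), Ctsb (56.3 and 29.4 RPM), Gabarapl1 (18.3 and 11.7 RPM) and Irf9 (6.83 and 3.38 RPM), all in the regions of chromosomes 6 or 14.

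Glycolysis genes had a median of 0.24, with 15 of 24 higher, and 0.34 without the 6 members in the regions of chromosomes 6 and 14. Slc16a3, which exports lactate, was 2.63 and 6.39 RPM, 2.43-fold higher with a counting interval of 1.996 to 2.97. Ldha, which makes lactate, was 88.6 and 132 RPM, Pkm2, pyruvate kinase, 687 and 948 RPM, and Pgk1 229.5 and 314 RPM. Ldhb, the other lactate dehydrogenase subunit, was lower at 166 and 86.6 RPM, as were Slc2a3, a glucose transporter, at 930.1 and 626 RPM, and Gapdh, at 834 and 744 RPM, and these 3 genes lie on chromosome 6. Hypoxia-response genes, in part the same enzymes, had a median of 0.03. In JB1 the glycolysis median was 1.02.

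Mitochondrial energy genes showed small differences in the same direction. Subunits and assembly factors of complex I, which feeds electrons from NADH into the respiratory chain, were higher in 36 of 41 cases (median 0.20). Complexes II to IV were higher in 24 of 27 cases (0.18), and ATP synthase genes in 17 of 17 (0.24). The only members past 1.5-fold were small subunits of complex III. Uqcrq was 32.8 and 65.6 RPM, 1.999-fold higher with a counting interval of 1.89 to 2.12, and Uqcr11 was 24.5 and 38.3 RPM. Atp5b, a catalytic subunit of ATP synthase, was 1091 and 1203 RPM, and Ndufa9, on chromosome 6, was lower at 61.5 and 46.3 RPM. Genes of the tricarboxylic acid cycle had a median of 0.07. Fh1, fumarate hydratase, was 29.8 and 40.2 RPM, and Sucla2, a succinyl-CoA ligase subunit in the chromosome 14 block, was 31.4 and 18.1 RPM. In JB1 the medians of complex I, complexes II to IV and ATP synthase were 0.18, 0.23 and 0.34.

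Amino acid and nucleotide metabolism held both directions. Tdh, which breaks down threonine and feeds the folate pathway of mouse stem cells, lies in the chromosome 14 block and was 116 and 46.6 RPM, 2.498-fold lower with a counting interval of 2.39 to 2.61. Gldc, the glycine cleavage enzyme that works downstream of it, was 111 and 197 RPM, 1.78-fold higher with a counting interval of 1.72 to 1.83. Nucleotide synthesis genes were higher in 19 of 24 cases (median 0.11), with Prps2 at 23.2 and 34.1 RPM, and none passed 1.5-fold. Fatty acid oxidation genes had a median of 0.08. Acaa2, the last enzyme of the cycle, was 5.29 and 8.59 RPM, and Cpt1b, a carnitine transferase, was 15.2 and 9.76 RPM. Genes of cholesterol synthesis (0.05), fatty acid synthesis (0.07), aminoacyl-tRNA synthetases (0.02) and polyamine and arginine metabolism (−0.01) were close to all genes.

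Ribosome and proteasome genes were mostly higher by small amounts. Of 81 measured cytosolic ribosomal protein genes, near copies included, 67 were higher (median 0.14). The sum over all 82 members in the gene table was 39775 and 43535 RPM. Rpl36 was 129 and 256 RPM, 1.98-fold higher with a counting interval of 1.93 to 2.04, and Rplp1, of the ribosomal stalk, was 298 and 501 RPM. Rpl32, on chromosome 6, was lower at 612 and 457 RPM. Mitochondrial ribosomal protein genes were higher in 56 of 76 cases (0.15), with Mrpl34 at 5.903 and 11.5 RPM and Mrpl28 at 17.2 and 30.6 RPM. Proteasome genes were higher in 39 of 47 cases (0.23), and the only 2 at least 1.5-fold lower, Psme2 (7.65 and 3.99 RPM) and Psmc6 (102 and 66.6 RPM), lie in the chromosome 14 block. Splicing factors had a median of 0.11, with the core protein genes Snrpf at 22.8 and 39.9 RPM and Snrpd2 at 64.03 and 95.1 RPM. Translation factors (0.07), chaperonin and prefoldin genes (0.11), polyadenylation and RNA decay genes (0.02) and ribosome biogenesis genes (−0.01) had no member past 1.5-fold. Host genes of small nucleolar RNAs were lower in 6 of 8 cases (−0.25), with Snhg4 at 14.5 and 9.096 RPM and Gas5 at 361 and 309 RPM.

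Many of these lists consist of short genes, and the difference varied with transcript length. Over genes other than replication-dependent histones, the median was 0.16 for longest annotated transcripts of 1 to 800 bases. It was also 0.16 for 801 to 1200 bases. It was 0.09 for 1601 to 2400 bases, −0.01 for 3201 to 4800 and −0.06 above 6400. In JB1 the medians at both ends were 0.14 and −0.13. Across transcript GC content the E14 median ran from −0.05 below 40% to 0.19 at 60% or more. With the median of each gene's length class subtracted, the list medians were 0.01 for cytosolic ribosomal proteins, 0.10 for complex I, 0.07 for complexes II to IV, 0.11 for ATP synthase and 0.12 for the proteasome. The same step left 0.57 for germline genes, 0.88 for Rhox, Xlr and Mage genes and 0.27 for immediate early genes. Of lists on the lower side, it left −0.02 for histone methyltransferases and demethylases, against −0.10 before. Kinesins had −0.07, ubiquitin-specific proteases −0.05, Zfp genes −0.13 and naive pluripotency genes −0.18. The part of transcript length in the results was not tested beyond these values. Lengths were known for 98.7% of the genes, from GENCODE M21.

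**Figure D3:**
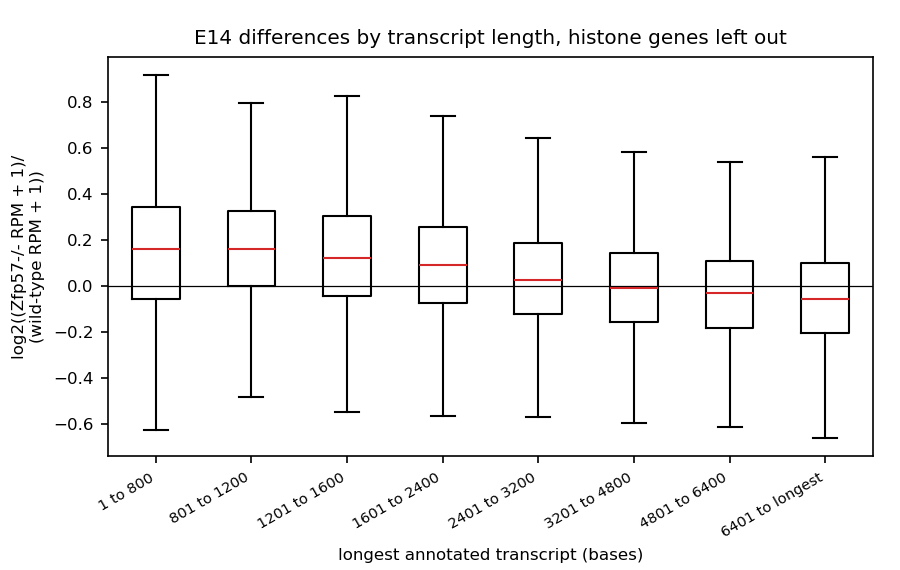
Box plots of the log2 difference, E14 knockout over wild type, for genes grouped by the length in bases of their longest annotated transcript. Replication-dependent histone genes are left out. Red lines are medians, boxes are quartiles, and whiskers reach the last gene within 1.5 box lengths. The medians step down from 0.16 in the shortest classes to −0.06 in the longest.

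Cell cycle genes were listed by phase. DNA replication genes were higher in 38 of 46 cases (median 0.13). Chaf1b, a subunit of the chaperone that loads histones on new DNA, was 26.4 and 38.4 RPM, Gins2, of the replicative helicase, 24.1 and 32.6 RPM, and Cdc6, which licenses origins, 46.9 and 62.98 RPM. Mitosis genes were lower in 22 of 37 cases (−0.08), with Mad2l1, of the spindle checkpoint on chromosome 6, at 72.5 and 56.5 RPM and Bub1b at 159 and 130.3 RPM. No gene of either list passed 1.5-fold. Of the G1 and S genes, Ccne2, cyclin E2, was 19.08 and 28.5 RPM and Ccnd3, cyclin D3, was 29.3 and 41.7 RPM, while Ccnd2 (2.38 and 0.919 RPM, chromosome 6) and Rb1 (20.6 and 12.1 RPM, chromosome 14) were at least 1.5-fold lower. DNA repair genes (0.01) and cohesin and condensin genes (−0.02) had no member past 1.5-fold.

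Matrix, adhesion and cytoskeleton genes held single large differences. Laminins and other basement membrane genes were higher in 12 of 16 cases (median 0.15). Besides Lama3, Lamc1, a laminin gamma chain, was 364 and 513 RPM. Of 18 measured collagens 15 were higher (0.17), with Col5a3 at 1.17 and 3.23 RPM, 2.76-fold higher with a counting interval of 2.06 to 3.74. Of 24 extracellular proteases and inhibitors, 3 were at least 2-fold lower (0.269% of all genes were), Adamts3, Adam19 and Mmp14 (6.36 and 2.55 RPM, chromosome 14), and Adam23 was 83.7 and 45.9 RPM, whereas Plaur, the urokinase receptor, was higher at 11.8 and 21.8 RPM. Integrin and focal adhesion genes had a median of 0.07. Itga9 was 30.8 and 15.4 RPM, 1.995-fold lower with a counting interval of 1.85 to 2.16, and Itga8 was 2.18 and 4.43 RPM.

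Intermediate filament and lamin genes were higher in 12 of 15 cases (0.19). Vim, vimentin, was 14.98 and 27.6 RPM, 1.85-fold higher with a counting interval of 1.696 to 2.01, and Lmna, lamin A/C, was 14.2 and 22.1 RPM. Actin and contractility genes (0.04), tight and adherens junction genes (0.01) and nuclear pore genes (−0.02) were close to all genes. Kinesins were lower in 19 of 30 cases (−0.10), and genes of the COP and SEC vesicle coats in 14 of 17 (−0.11), with Copg, of the COPI coat on chromosome 6, at 135 and 105 RPM and Sec16a, which organises export sites, at 209 and 180.1 RPM. Ubiquitin-specific proteases were lower in 33 of 47 cases (−0.09), with Usp11 at 81.8 and 49.002 RPM.

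Naive pluripotency genes were lower in 14 of 22 cases, with a median of −0.10. Higher members made up 36.4%, against 53.5% of all genes. Prdm14 passed 2-fold, and Nanog, on chromosome 6, was 228 and 137 RPM, 1.67-fold lower with a counting interval of 1.62 to 1.71. Tcfcp2l1 was 504 and 308 RPM, 1.64-fold lower with a counting interval of 1.61 to 1.67. Esrrb was 398 and 334 RPM and Zfp42 736 and 587 RPM, while Klf2 (46.1 and 57.8 RPM) and Sall4 (280.4 and 346 RPM) were higher. Primed epiblast genes were higher in 12 of 14 cases (median 0.16). The 2 others lie in the regions of chromosomes 6 and 14, and without them the median was 0.29. Pou3f1 was 0.911 and 1.91 RPM, Lefty1 3.39 and 5.503 RPM and Foxd3 6.696 and 9.97 RPM. Otx2, an early primed marker in the chromosome 14 block, was 8.64 and 8.42 RPM. In JB1 the naive and primed medians were −0.21 and −0.13.

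Markers of other cell types were read in both libraries at levels that differed widely between lists. Of 17 mesoderm markers 4 were measured, and all 4 were higher, the highest Eomes at 1.15 and 1.698 RPM. Of 17 neuroectoderm markers 9 were measured (median 0.14), among them Sox4 (8.697 and 15.6 RPM) and Pax6 (3.37 and 1.99 RPM), and Fabp7 had 0 reads in both libraries. Of 13 measured primitive endoderm markers 7 were higher (median 0.01). All 20 listed markers, measured or not, summed to 460.3 and 530.2 RPM. The most abundant were Lrp2, an endocytic receptor, at 157 and 199 RPM and Lama1, a laminin chain, at 117 and 126 RPM, and Fst, also listed as an activin inhibitor, was the only member past 1.5-fold. Of the defining factors, Gata4, in the chromosome 14 block, was 2.199 and 1.15 RPM, and Gata6 was 1.37 and 0.99 RPM. Trophoblast markers had a median of 0.29 over 8 genes, and Gata3 was 0.574 and 1.63 RPM. With genes under 5 RPM left out the median was −0.37, which rests on Tcfap2c (16.9 and 14.3 RPM) and Tead4 (10.9 and 7.38 RPM, chromosome 6) alone. Of 18 fibroblast or feeder markers 6 were measured. All 18 summed to 596 and 511 RPM, mostly Fn1, fibronectin, at 562 and 462 RPM. Vim, vimentin, was the only member past 1.5-fold, and Dcn, Lum and Twist2 had 0 reads in both libraries. Of 15 blood and endothelial markers 6 were measured and all were higher (median 0.44), with Pecam1, which these stem cells also express, at 74.4 and 94.01 RPM and Tek at 12.9 and 18.998 RPM. The globin genes Hba-a1 and Hbb-b1 had 0 reads in both. Summed over all listed markers of blood and endothelium the level was 97.5 and 127 RPM. The part of such markers in the results was not tested.

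Transporters, channels and receptors had no common direction. Of 199 measured solute carriers 102 were higher (median 0.02). At 1.5-fold, 10 were higher and 4 lower, near the 3.81% and 2.27% of all genes, and only 1 of the 4 lies outside the regions of chromosomes 6 and 14. Slc1a1, a glutamate transporter, was 12.2 and 22.8 RPM and Slc13a5, a citrate transporter, 3.98 and 8.57 RPM, while Slc39a14, a zinc and manganese transporter in the chromosome 14 block, was 59.7 and 28.7 RPM. Potassium channels had a median of −0.09 over 21 genes, and sodium and calcium channels 0.00 over 30, with Trpv3, a heat-sensing channel, at 0.971 and 2.74 RPM. Gm predicted genes (0.01 over 399) and Riken cDNA genes (0.03 over 730) also lay near all genes. Neb and Spna1 were picked after their values were seen. Neb, nebulin of the sarcomere, was 7.75 and 18.9 RPM, and Spna1, the spectrin of red cells, was 8.102 and 19.7 RPM.

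**Figure D4:**
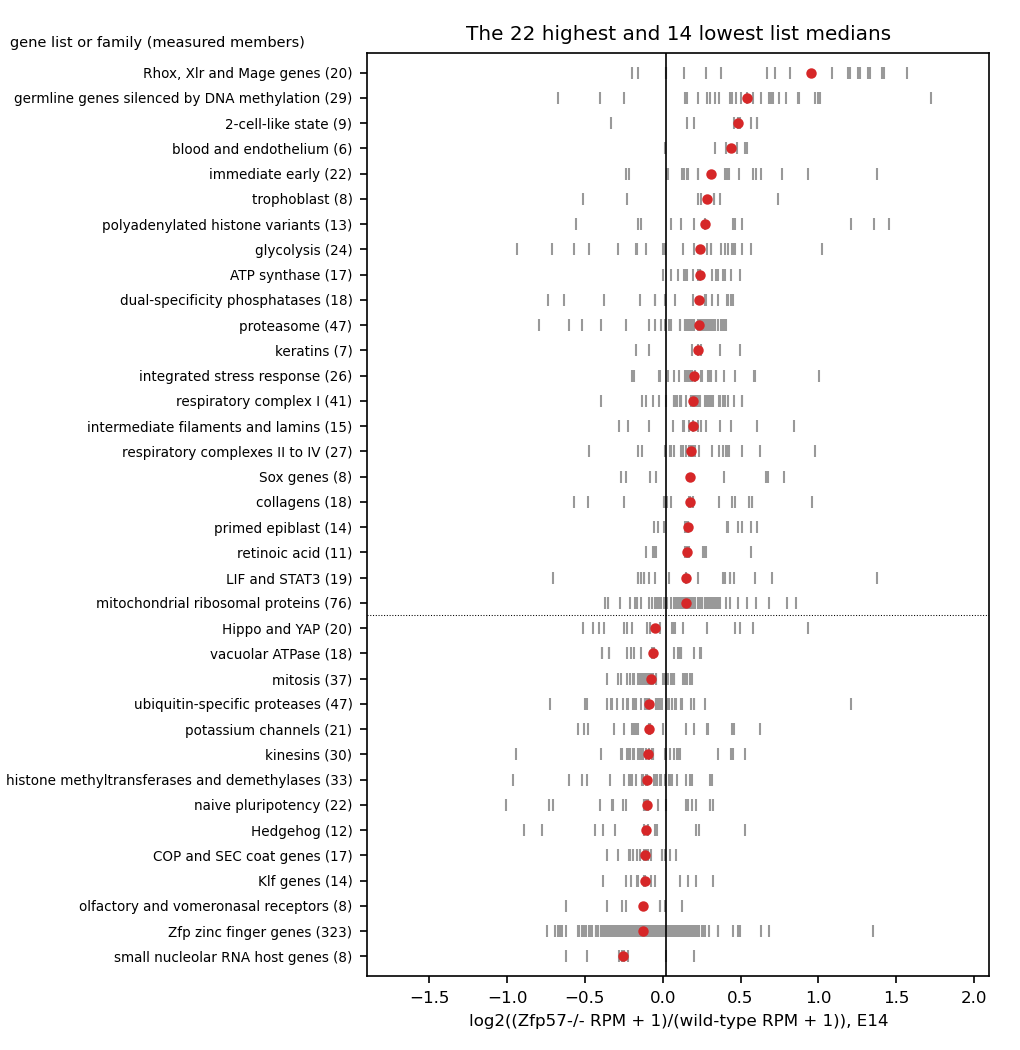
Grey marks are single genes of a list, red points are the list medians, and the vertical line is the median of all genes, 0.02. The horizontal axis is the log2 difference, E14 knockout over wild type, and the number of measured members follows each name. The plot holds the 22 lists with the highest medians (above the dotted line) and the 14 with the lowest, among 98 lists with 5 or more measured members. Replication-dependent histones, imprinted genes and 2 families added later, among them the Pramel and Pramef genes, are left out. Rhox, Xlr and Mage genes lead at 0.95 and small nucleolar RNA host genes close the order at −0.25.

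Set beside JB1, few of the large differences in E14 had a counterpart. Of the 150 genes at least 2-fold different in E14, 85 had at least 1 RPM in a JB1 library. Of the 62 replication-dependent histone genes measured in E14, 51 of them past 2-fold, only 4 reached 1 RPM in JB1. A gene under 1 RPM in both JB1 libraries could have no counterpart. JB1 had 328 genes at least 2-fold higher and 208 lower, among 13132 genes at 1 RPM or more. At least 2-fold higher in both lines were 5 genes. These were Id1 (JB1 levels 3.32 and 8.42 RPM), Rpl39l, Slc16a3 (3.48 and 12.2 RPM in JB1), Fam25c and BC051077. Fam25c, a small gene of unknown role, was 2.67 and 6.45 RPM in E14, and its JB1 levels were 3.37 and 11.96 RPM. BC051077 was 6.83 and 15.6 RPM, with JB1 levels of 16.96 and 36.4 RPM. Zfp57 was the only gene at least 2-fold lower in both. A further 6 genes were at least 2-fold different in opposite directions. Atf5, Id2, Ptgs2 and Hist1h1c, a linker histone, were higher in E14 and lower in JB1, whereas Ntn1 and Adam19 were lower in E14 and higher in JB1. Each line had 1 library per genotype, so the difference between the lines was not tested.

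**Figure D5:**
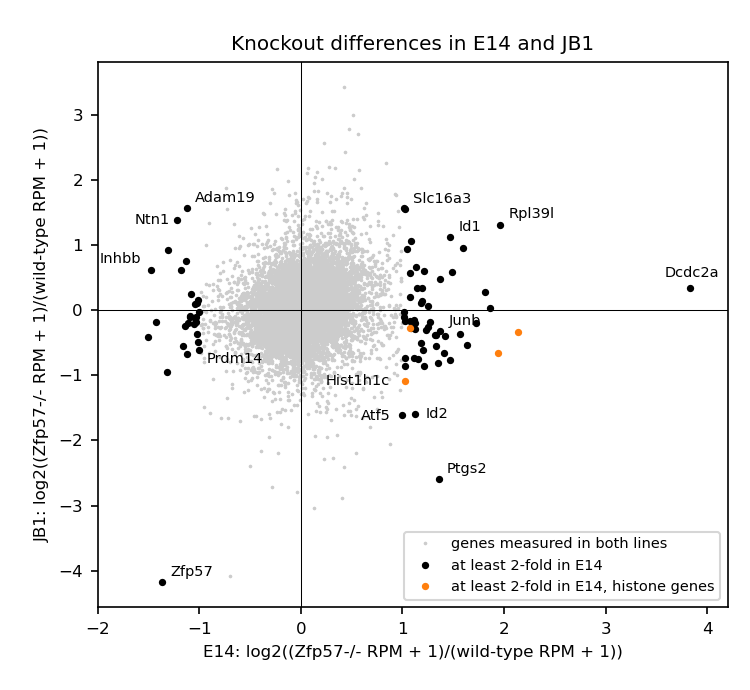
Each point is a gene with at least 1 RPM in a library of each line, with the E14 log2 difference on the horizontal axis and the JB1 log2 difference on the vertical axis. Black and orange points are at least 2-fold different in E14. Id1, Rpl39l and Slc16a3 lie at the upper right, Zfp57 at the lower left, and Ptgs2, Id2 and Atf5 at the lower right.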

How the data were processed

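Each of the 4 libraries was 1 sample of mouse embryonic stem cells, made from poly(A) RNA with a stranded kit, per the labels' protocols. The deposited values are log2 RPM per gene, made by the authors with CASAVA 1.8.2, cutadapt and TopHat2 2.0.8b on mm9, per the submitters' processing notes. The sources used here do not name the counting tool, its annotation or its use of strand. Values in RPM were recovered by reversing the log2, and they corresponded to whole reads for 100.0% of the values within a relative tolerance of 0.0001. Because the tolerance is relative, the check says little for genes with many reads. No count model was run, since each group holds 1 library. Genes with at least 1 RPM in either E14 library were kept, and a pseudocount of 1 RPM was added for the log2 difference. Confidence intervals are at 95%.

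The genes named first are the 15 highest and 15 lowest differences outside Zfp57, imprinted genes, replication-dependent histone genes, chromosome 6 and the chromosome 14 block. In each list or family the rule takes the 2 highest and 2 lowest members past 1.5-fold and the 2 with the highest mean RPM, not all of which are printed. Other members are named for their role in a pathway, and further genes were named after their values were seen. Members and lists were chosen with earlier results of these data known. Transcript lengths came from GENCODE and promoter windows from RefSeq. Alternatives were pseudocounts of 0.5 and 5 RPM, a filter of 5 RPM or none, scaling by the reads of listed genes outside the histones or by the trimmed mean of M values (TMM, computed from its formula), leaving out the shifted regions, and means in place of medians. Subtracting the median of a length or level class was added after the data were seen. Scripts were tested on simulated data and used Python 3.11.15, numpy 2.4.6, pandas 2.3.3, scipy 1.17.1 and matplotlib 3.10.9. Some list members are not reported here.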

Additional observations from a re-analysis of the deposited data

Results flagged for a closer look

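Genes at least 2-fold different in opposite directions in E14 and JB1 were set apart because every library pair of one line went one way and that of the other line the opposite way. With 1 library per genotype in each line, the difference between the lines was not tested. Ptgs2, the inducible cyclooxygenase, had a log2 difference of 1.36 in E14 and −2.59 in JB1, where its level was 20.5 and 2.57 RPM. Id2, a target of BMP signals, had 1.12 in E14 and −1.59 in JB1 (26.4 and 8.07 RPM), unlike Id1, which was higher in both lines. Atf5 had 1.00 in E14 and −1.61 in JB1 (127 and 40.7 RPM). Hist1h1c, a linker histone gene, had 1.02 in E14 and −1.08 in JB1 (11.7 and 5.03 RPM). Ntn1, netrin 1, had −1.22 in E14 and 1.38 in JB1 (18.5 and 49.95 RPM). Adam19, a membrane protease, had −1.12 in E14 and 1.57 in JB1 (17.1 and 52.9 RPM).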

How the results depend on the processing

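No paired analysis was possible because each genotype of E14 has 1 library, and for the same reason no library could be left out. With a pseudocount of 5 RPM, 44 genes were at least 2-fold higher and 6 lower, 162 were at least 1.5-fold higher and 128 lower, 7 lists had a median of 0.2 or more and 3 had −0.1 or less. With 0.5 RPM, 183 genes were at least 2-fold higher and 50 lower. With a filter of 5 RPM, 290 genes were at least 1.5-fold higher and 11 lists had a median of −0.1 or less. That number of lists was 4 with no filter and 14 under TMM scaling, against 7 as reported. Without chromosome 6 and the chromosome 14 block, 16 genes were at least 2-fold lower and 98 at least 1.5-fold lower. Medians changed sign for trophoblast markers (−0.37) and keratins (−0.091) with a filter of 5 RPM and for olfactory and vomeronasal receptors (0.0075) with no filter. The trophoblast value then rested on Tcfap2c and Tead4 alone. Of the named genes' differences, 2147 values under alternatives moved by less than their counting error and 187 by more. The median of all genes ran from −0.01 under TMM to 0.03 without the shifted regions, so list medians of that size have no firm direction. The cause of these shifts was not tested. The spread between cultures is not known.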
